A study of Mus musculus with 23 samples.

Results

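Immediate early genes were followed in astrocytes isolated from the mouse cerebral cortex, as 10 named members: Fos, Fosb, Jun, Junb, Atf3, Egr1, Nr4a1, Ier2, Dusp1 and Btg2. They were chosen by symbol, as genes known to be induced by cell activity or by tissue dissociation, and by no cut on their measured values. All 10 were found among the 24411 gene symbols of the count table, and all 10 were among the 17302 symbols above the low-count filter over the 4 groups.

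Immediate early genes are transcribed within minutes of a stimulus, without a need for new protein. Growth factor, calcium and stress signals reach them through MAP kinases, which act on the serum response factor and its ETS partners, and through the cAMP-responsive factor CREB. In brain tissue they are widely used as a record of recent activity, and they are also known to be switched on while tissue is dissociated into single cells.

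Mice were labelled male and were 70 days old (P70), with 1 library per mouse. Every mouse carried 2 floxed Aldh7a1 alleles and received 4-hydroxytamoxifen at P3 to P4, controls included. cKOAstro mice also carried a tamoxifen-inducible Cre recombinase (CreER) on 1 allele of Slc1a3, a gene expressed in astrocytes, and ConAstro mice were littermates without Cre. From P21 the mice ate control chow or chow containing sulforaphane (SFN, which activates the antioxidant factor NRF2). On control chow there were 4 ConAstro and 7 cKOAstro mice, and on SFN 5 and 7, the SFN-fed groups. Cortex was digested with papain and astrocytes were held on magnetic beads by the surface antigen ACSA-2, so the level of an immediate early gene was read after digestion and column separation.

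Counts summed to between 46890715 and 391701247 per library, and the lowest count of any member in any library was 1703, so counting error was small beside the spread between mice. All values below are TMM-normalised counts scaled to library size (CPM), and fold changes are on the log2 scale ± standard error (SE) from the quasi-likelihood test of edgeR with Benjamini-Hochberg adjustment over all genes tested, called at an adjusted p under 0.05. Aldh7a1, the deleted gene, went against the label of 2 libraries. It was at 55.7 CPM in the SFN-fed library labelled ConAstro replicate 1, against 177 to 226 CPM in the 8 other libraries labelled ConAstro on either diet, and at 222 CPM in the SFN-fed library labelled cKOAstro replicate 2, against 43.0 to 77.2 CPM in the 13 other libraries labelled cKOAstro. The library labelled cKOAstro replicate 2 held 1541 CPM of Xist, which is expressed from an inactive X chromosome, against at most 0.706 CPM in any other library, although all mice were labelled male. It held 0.0077 CPM of the Y chromosome gene Ddx3y, against 83.6 to 114 CPM in the other libraries. Groups were kept as labelled, and results are given with and without the first 2 of these libraries where they differ. Markers of the labelled cell type were present, with 10 astrocyte genes summing to between 11544 and 23010 CPM per library. But 7 oligodendrocyte genes summed to between 21515 and 55856, so oligodendrocyte RNA was present as well. All 4 red blood cell genes searched were listed at 0 in every library. Why they were at exactly 0 was not tested, so this does not show that red blood cell RNA was absent.

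The members encode several kinds of regulator. Fos and Fosb are leucine zipper proteins that pair with Jun proteins to form the transcription factor AP-1, and Jun and Junb are such partners. Atf3 is a related leucine zipper factor of the stress response, Egr1 is a zinc finger transcription factor, and Nr4a1 is an orphan nuclear receptor. Dusp1 is a phosphatase that switches MAP kinases off, Btg2 is an antiproliferative co-regulator of transcription and mRNA decay, and Ier2 is a nuclear protein of the early response whose role is less well defined.

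On the mouse assembly GRCm38 (also called mm10), Fos lies on the plus strand at chr12:85473890-85477273 and Dusp1 on the minus strand at chr17:26505590-26562128. Btg2 lies on the minus strand at chr1:134075170-134079120 and Nr4a1 on the plus strand at chr15:101254269-101274795. These coordinates are of the whole gene, exons and introns together, in GENCODE M21. Exons of Jun overlap those of Junos, exons of Junb those of Prdx2, and exons of Dusp1 those of Ergic1. The library kit does not mark the strand, so reads from such shared stretches could not be told apart and the counts of these 3 members are uncertain to that extent.

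The starts of 4 members are shown for the motifs they hold: Dusp1 and Btg2 have the full cAMP response element, and Fos and Nr4a1 its core alone, more than once each. Each is the RefSeq window of GRCm38.p6 from 250 bases before the annotated start, read 5′ to 3′ on the gene's own strand. Capitals mark the cAMP response element TGACGTCA, which CREB and ATF factors bind, its core (TGACG, or the reverse complement of these letters), and the TATA box TATAAA.
Fos, chr12:85473640-85473939, plus strand: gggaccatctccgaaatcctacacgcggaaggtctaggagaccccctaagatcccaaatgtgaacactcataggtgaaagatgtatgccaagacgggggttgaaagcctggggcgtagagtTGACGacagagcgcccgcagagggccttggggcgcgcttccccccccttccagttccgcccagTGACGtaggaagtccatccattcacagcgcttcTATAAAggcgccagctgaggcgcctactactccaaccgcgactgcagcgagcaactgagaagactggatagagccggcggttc
Dusp1, chr17:26508423-26508722, minus strand: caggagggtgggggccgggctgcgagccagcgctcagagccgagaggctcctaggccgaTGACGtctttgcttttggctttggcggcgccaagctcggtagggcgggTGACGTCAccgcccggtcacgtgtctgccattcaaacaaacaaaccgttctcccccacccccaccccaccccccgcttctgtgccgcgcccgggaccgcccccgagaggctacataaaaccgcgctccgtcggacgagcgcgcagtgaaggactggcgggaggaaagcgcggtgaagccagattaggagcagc
Btg2, chr1:134079106-134079405, minus strand: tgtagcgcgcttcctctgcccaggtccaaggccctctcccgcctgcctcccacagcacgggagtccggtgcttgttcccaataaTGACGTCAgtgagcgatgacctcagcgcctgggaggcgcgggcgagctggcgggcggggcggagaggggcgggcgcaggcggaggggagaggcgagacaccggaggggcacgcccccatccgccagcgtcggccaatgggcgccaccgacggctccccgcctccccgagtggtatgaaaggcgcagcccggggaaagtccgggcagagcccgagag
Nr4a1, chr15:101266596-101266895, plus strand: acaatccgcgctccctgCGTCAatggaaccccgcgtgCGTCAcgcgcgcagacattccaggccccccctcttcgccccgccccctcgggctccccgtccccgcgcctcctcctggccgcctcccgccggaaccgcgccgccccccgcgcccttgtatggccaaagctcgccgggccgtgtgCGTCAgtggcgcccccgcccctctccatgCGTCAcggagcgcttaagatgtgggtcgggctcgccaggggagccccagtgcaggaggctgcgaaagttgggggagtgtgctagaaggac
The full element stood in the windows of Dusp1 and Btg2, beginning 143 and 166 bases upstream of the start. The Fos window held the core beginning 129 and 66 bases upstream and a TATA box beginning 33 bases upstream, and the Nr4a1 window held the core 4 times.

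Across the 8 member windows searched (Fos, Fosb, Jun, Junb, Atf3, Nr4a1, Dusp1 and Btg2), 7 held the core on either strand, against 20.8% of all 32851 windows. The full element, which contains the core, was in 2 of the 8, against 1.79% of all windows, and TATAAA was in 2 of the 8, against 13.6%. The zinc finger site GCGNGGGCG was in 3 of the 8 (Btg2, Fosb and Nr4a1), against 5.55%. The AP-1 site TGANTCA and the CArG box of serum response factor were in none of the 8, against 7.81% and 1.63% of all windows, which says only that these letters were not in this stretch. These matches describe letters and no binding was measured.

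Per kilobase of merged exon, Fos stood highest, at a mean level of 107 CPM per kilobase over the 23 libraries, followed by Jun at 88.0, Junb at 58.1 and Dusp1 at 50.1. Btg2 (36.8 CPM per kilobase), Egr1 (30.3), Nr4a1 (26.1) and Ier2 (23.3) lay lower, and Atf3 (15.6) and Fosb (9.99) lowest. The order was set by mean levels. The SDs over libraries, 24.4 CPM per kilobase for Fos and 16.5 for Jun, were of the size of the gap between these neighbours, and the SDs of Egr1 (5.67), Nr4a1 (5.22) and Ier2 (6.18) also exceeded the gaps between those 3. All 10 genes were thus well detected in every library of every group.

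The first question was whether deletion of Aldh7a1 in astrocytes moved the AP-1 genes. Fos was at 196, 205, 333 and 280.0 CPM in ConAstro replicates 1 to 4, and in the 7 cKOAstro libraries it had a lowest level of 151, a median of 241 and a highest level of 287 CPM. It was at 305, 322, 299, 230.2 and 349 CPM in SFN-fed ConAstro replicates 1 to 5, and in the 7 SFN-fed cKOAstro libraries it ran from 151 through a median of 271 to 299.8 CPM. All 4 groups overlapped, the ConAstro libraries themselves fell into a lower and a higher pair, and the lowest Fos level of each knockout group was below every control library. In SFN-fed cKOAstro that lowest level was in the library labelled replicate 2, whose Aldh7a1 went against the label. Fos averaged 253 ± 65.1 CPM in ConAstro (SD, n = 4) and 230.4 ± 47.1 in cKOAstro (n = 7), a log2 fold change of -0.14 ± 0.18 (edgeR adjusted p = 0.981). On the SFN diet it averaged 301 ± 44.0 CPM in ConAstro (n = 5) and 239 ± 60.9 in cKOAstro (n = 7), a log2 fold change of -0.33 ± 0.18 (edgeR adjusted p = 0.305). Neither difference passed the test.

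**Figure D1:**
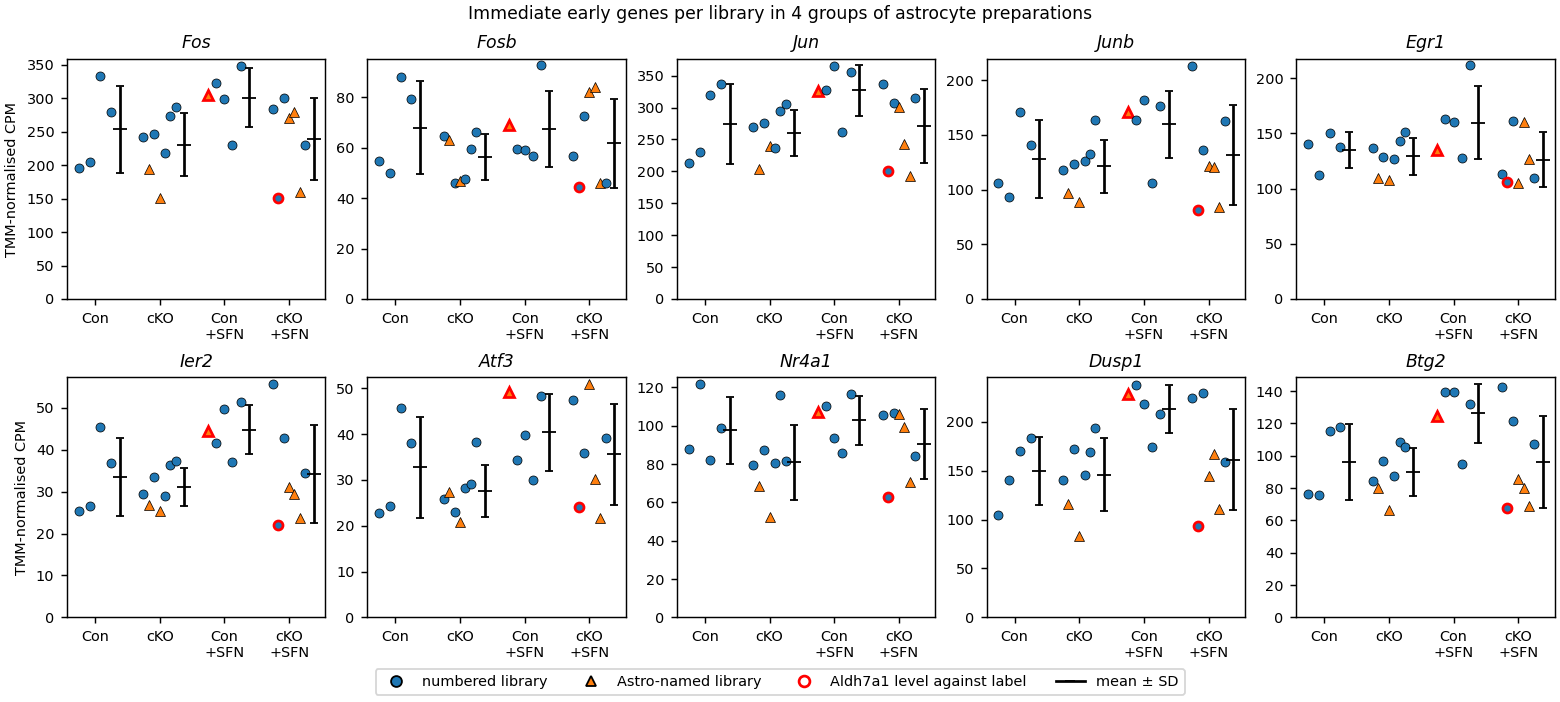
Level of each immediate early gene in every library (y axis, TMM-normalised CPM, from 0) by group (x axis), with the group mean ± SD beside the points. Circles are numbered libraries, triangles Astro-named libraries and a red outline marks the 2 libraries whose Aldh7a1 level went against the label. For every member the points of the 4 groups overlap.

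The partners of Fos were as variable. Junb was at 106, 93.1, 171 and 141 CPM in ConAstro replicates 1 to 4 and at 171, 163, 182, 106 and 176 in SFN-fed ConAstro replicates 1 to 5. In cKOAstro it ran from 88.9 through a median of 123 to 163 CPM, and in SFN-fed cKOAstro from 81.5 through 121 to 213, so that the SFN-fed knockout group held both the lowest and the highest Junb level of the series. The lowest was in the library labelled replicate 2, whose Aldh7a1 went against the label. Jun averaged 275 ± 62.4, 261 ± 36.2, 327 ± 40.3 and 271 ± 58.5 CPM in the groups ConAstro, cKOAstro and then the same on SFN. Fosb averaged 67.9 ± 18.5, 56.3 ± 9.04, 67.4 ± 14.9 and 61.7 ± 17.5 CPM in the same order. Atf3, the least abundant by CPM together with Ier2, averaged 32.7 ± 11.0, 27.5 ± 5.63, 40.4 ± 8.48 and 35.6 ± 11.1 CPM. For each of these 4 genes the ranges of all groups overlapped.

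Dusp1, the feedback phosphatase, was at 105, 140.1, 170.1 and 184 CPM in ConAstro replicates 1 to 4 and at 228, 238, 218, 174 and 208 in SFN-fed ConAstro replicates 1 to 5. It ran from 83.3 through a median of 146 to 194 CPM in cKOAstro and from 93.3 through 159 to 229.7 in SFN-fed cKOAstro. The level of 93.3 CPM was in the SFN-fed library labelled cKOAstro replicate 2, whose Aldh7a1 went against the label. Of the 5 SFN-fed ConAstro libraries, 4 were above every ConAstro library, and the fifth, replicate 4, lay among them. Replicate 1, among those 4, is the SFN-fed library labelled ConAstro whose Aldh7a1 went against the label.

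Btg2 was at 76.3, 75.5, 115 and 118 CPM in ConAstro replicates 1 to 4 and at 125, 139, 139.7, 95.2 and 132 in SFN-fed ConAstro replicates 1 to 5. It ran from 66.6 through 87.7 to 108 CPM in cKOAstro and from 67.7 through 85.9 to 143 in SFN-fed cKOAstro. As with Dusp1, the SFN-fed controls were mostly at the upper end and replicate 4 was not. Here too replicate 1 of these controls had Aldh7a1 against its label, as had the lowest SFN-fed cKOAstro library, replicate 2. Ier2 averaged 33.5 ± 9.40, 31.1 ± 4.64, 44.8 ± 5.84 and 34.2 ± 11.7 CPM in the groups ConAstro, cKOAstro and then the same on SFN.

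Egr1 and Nr4a1, the members outside the leucine zipper group that bind DNA as a zinc finger factor and a nuclear receptor, were also spread widely within groups. Egr1 averaged 135 ± 16.2, 129 ± 16.5, 159.6 ± 32.8 and 126 ± 24.8 CPM in the 4 groups in the same order, and Nr4a1 97.6 ± 17.5, 80.9 ± 19.4, 103 ± 12.6 and 90.7 ± 18.3 CPM. Both had overlapping ranges in all 4 groups.

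On the control diet, 0 of the 10 members were called between cKOAstro and ConAstro by edgeR, where 0.023% of all 17406 genes tested were called, and DESeq2 also called 0. At an unadjusted p under 0.05 the count was 0 of 10, against 3.74% of all genes. All 10 fold changes lay below 0, as did 52.4% of all genes, with a median of -0.11 against -0.0072 over all genes. They ran from -0.28 ± 0.17 for Fosb to -0.044 ± 0.21 for Dusp1 (edgeR adjusted p = 0.981 and 0.985). The ranges of the 2 groups overlapped for all 10 members, and did not overlap for 0.485% of genes. Library names in the labels begin either with a number or with Astro. Within the numbered libraries (5 cKOAstro against the 4 ConAstro) 6 of the 10 were higher in cKOAstro and the median was 0.011. All ConAstro names begin with the same number, which begins no cKOAstro name, so genotype on this diet cannot be told apart from it. What that leading number stands for is not stated. Without ConAstro replicate 3 in the full comparison, 4 of the 10 were higher in cKOAstro and the median was -0.0022. Markers of 2 other cell types all lay on the same side as the members in the full comparison: 9 of 9 microglia markers had a median of -0.24, with summed levels of 1365 to 2065 CPM in ConAstro and 418 to 2796 in cKOAstro, and 6 of 6 endothelial markers a median of -0.48, with sums of 170 to 465.8 and 168 to 251 CPM. Of the oligodendrocyte precursor markers 3 of 4 lay below 0. No marker on these lists was called or at 0, and their part in the members' values was not tested. All markers of neurons (8 of 8), fibroblasts (4 of 4) and ependymal cells (4 of 4) lay above 0. No ConAstro library is Astro-named, so the comparison within that name series could not be made. Because these are bulk preparations, fewer cells of a type that expresses a gene and less RNA per cell cannot be told apart here or below.

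On the SFN diet, 0 of the 10 members were called between SFN-fed cKOAstro and SFN-fed ConAstro by edgeR (0.0% of all 16672 genes) and 0 by DESeq2. In every group comparison and in the interaction DESeq2 did call genes other than the members, and its counts over all genes are given at the end. At an unadjusted p under 0.05 there was 1 of 10, Egr1, at -0.34 ± 0.15 (edgeR adjusted p = 0.229), against 20.3% of all genes. All 10 fold changes again lay below 0, against 48.8% of all genes, with a median of -0.31 against 0.0073 over all genes. They ran from -0.40 ± 0.20 for Dusp1 to -0.13 ± 0.20 for Fosb, with Btg2 at -0.39 ± 0.18 and Ier2 at -0.39 ± 0.20. The ranges of the groups overlapped for all 10, and did not for 1.19% of genes. Astro-named libraries were unevenly spread, being replicates 4, 5 and 6 of SFN-fed cKOAstro and replicate 1 of SFN-fed ConAstro. No member changed sign with name series as a covariate or with the numbered libraries alone. The latter keep the SFN-fed library labelled cKOAstro replicate 2. The part of the name series in these values was not tested further. Again 9 of 9 microglia markers (median -0.53) and 6 of 6 endothelial markers (median -0.82) lay below 0, with 0 called. Microglia sums were 915 to 2844 CPM in SFN-fed ConAstro and 315 to 3319 in SFN-fed cKOAstro, and endothelial sums 367 to 587 and 126 to 591 CPM. Fibroblast (4 of 4, median -0.76), oligodendrocyte precursor (4 of 4, -0.60) and mural markers (5 of 5, -0.48) also all lay below 0, with 0 called. Their sums were 107 to 149, 136 to 287 and 1150.2 to 1805 CPM in SFN-fed ConAstro and 67.6 to 141, 78.0 to 244 and 650.03 to 1580.0 in SFN-fed cKOAstro. Oligodendrocyte (7 of 7) and ependymal markers (4 of 4) lay above 0. The part of these cell types was not tested. Aldh7a1 itself, the deleted gene, was not called in this comparison, at -1.25 ± 0.45 (edgeR adjusted p = 0.195). Both libraries whose Aldh7a1 went against the label were kept in it. A test that did not call the deletion cannot show that the members were unchanged. With both of these libraries left out, the median of the members was -0.22 and 0 of the 10 were under an unadjusted p of 0.05.

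The question for the diet was whether SFN moved these genes in control astrocytes. Between SFN-fed ConAstro and ConAstro, 0 of the 10 members were called by edgeR (0.0% of all 16509 genes) and 0 by DESeq2. Fold changes of 9 of the 10 lay above 0, against 48.4% of all genes, with a median of 0.27 against -0.0055 over all genes. At an unadjusted p under 0.05 there were 3, against 6.54% of all genes. These were Dusp1 at 0.50 ± 0.16 (edgeR adjusted p = 0.762), Ier2 at 0.41 ± 0.18 and Btg2 at 0.38 ± 0.17. Without the SFN-fed library labelled ConAstro replicate 1 the count was 1 of 10, with the median still at 0.27. Fosb was at -0.022 ± 0.20 and Nr4a1 at 0.069 ± 0.12. The ranges overlapped for all 10 members, and did not for 1.97% of genes. No SFN-fed ConAstro name begins with the number of the ConAstro names, so diet in controls cannot be told apart from it. Here 9 of 9 microglia markers (median 0.18) and 6 of 6 endothelial markers (median 0.62) lay above 0, the summed levels being those given above. So did fibroblast (4 of 4, median 0.50), mural (5 of 5, 0.30) and oligodendrocyte precursor markers (4 of 4, 0.22), and 7 of 8 neuron markers (0.31). Ependymal markers (4 of 4, median -0.38) lay below 0. Of oligodendrocyte and astrocyte markers 5 of 7 and 3 of 10 lay above 0. None of these markers was called and their part was not tested.

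Between SFN-fed cKOAstro and cKOAstro, 0 of the 10 were called by edgeR (0.0% of all 16903 genes) and 0 by DESeq2, and 0 were under an unadjusted p of 0.05 (10.9% of all genes). Fold changes of 9 of the 10 lay above 0, against 51.5% of all genes, with a median of 0.13. The widest was that of Atf3, 0.37 ± 0.19 (edgeR adjusted p = 0.47), and Egr1 was at -0.031 ± 0.12. The ranges overlapped for all 10 members, and did not for 0.0925% of genes. The numbered libraries of these groups shared no leading number in their names. Oligodendrocyte (7 of 7, median 0.33) and endothelial markers (6 of 6, 0.26) lay above 0 with the members, and 4 of 9 microglia markers did (median -0.19). Oligodendrocyte sums were 22112 to 31144 CPM in cKOAstro and 23943 to 55856 in SFN-fed cKOAstro. Oligodendrocyte precursor (4 of 4), mural (5 of 5), fibroblast (4 of 4) and ependymal markers (4 of 4) lay below 0. None was called, and their part in the members' values was not tested.

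SFN-fed cKOAstro was also set against ConAstro, the comparison of treated knockouts with untreated controls. No member was called by edgeR (0 of 10, against 0.0% of all 16753 genes) or by DESeq2 (0 of 10), and 0 were under an unadjusted p of 0.05, against 8.67% of all genes. Fold changes of 6 of the 10 lay below 0, against 52.4% of all genes, with a median of -0.023, between -0.15 for Fosb and 0.11 for Atf3. The ranges overlapped for all 10 members, and did not for 1.44% of genes. Microglia (9 of 9, median -0.35), oligodendrocyte precursor (4 of 4, -0.39) and ependymal markers (4 of 4, -0.11) lay below 0. Neuron (8 of 8, 0.33) and oligodendrocyte markers (7 of 7, 0.33) lay above 0. Of endothelial, mural and fibroblast markers 1 of 6, 1 of 5 and 1 of 4 lay above 0. None was called, and their part was not tested. Aldh7a1 was not called here either, at -1.54 ± 0.42 (edgeR adjusted p = 0.557). The SFN-fed library labelled cKOAstro replicate 2, whose Aldh7a1 went against the label, was kept in.

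Whether the genotype difference depended on diet was tested as an interaction in the 4 groups together. By edgeR 0 of the 10 were called (0.0% of all 17302 genes) and by DESeq2 0, with 0 under an unadjusted p of 0.05 (7.32% of all genes). Estimates for 7 of the 10 lay below 0, against 50.6% of all genes, with a median of -0.20, and the widest was that of Dusp1, -0.36 ± 0.31 (edgeR adjusted p = 0.781). All markers of microglia (9 of 9, median -0.29), endothelial cells (6 of 6, -0.29), oligodendrocyte precursors (4 of 4, -0.50), mural cells (5 of 5, -0.62) and fibroblasts (4 of 4, -0.92) lay below 0 as well. Oligodendrocyte markers (7 of 7, median 0.28) lay above 0. Of neuron, ependymal and astrocyte markers 2 of 8, 1 of 4 and 4 of 10 lay above 0. On these lists 0 were called, and the part of these cell types was not tested. These 5 comparisons and the interaction share groups, so their fold changes are not independent of each other.

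**Figure D2:**
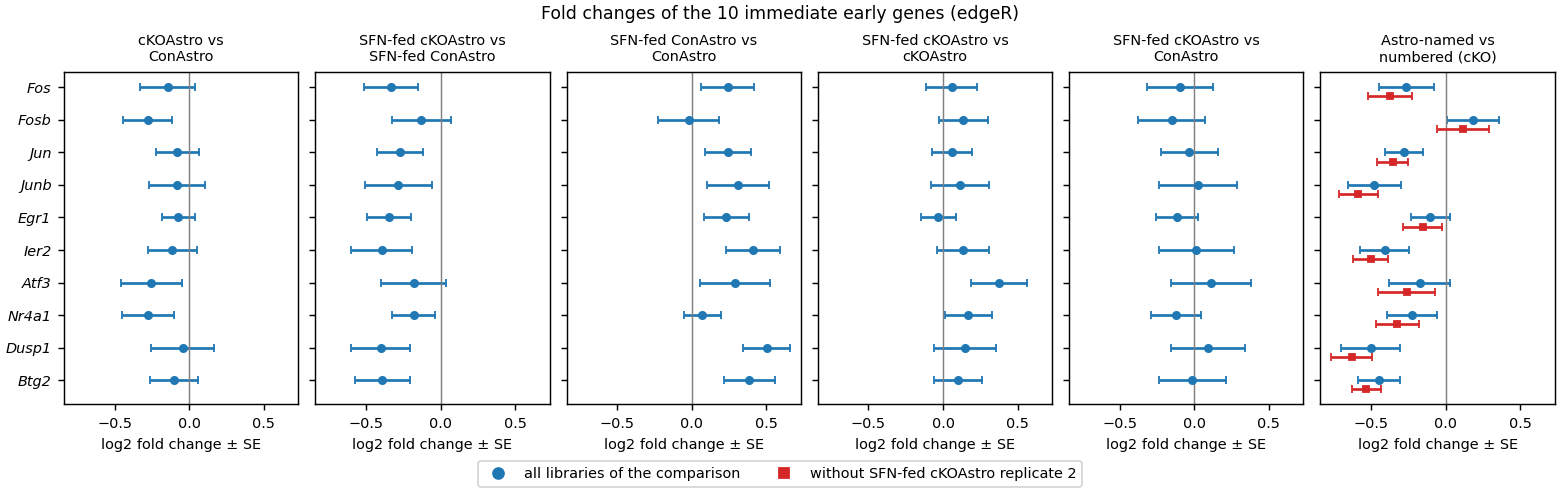
Fold change of each member (x axis, log2 ± SE from edgeR; y axis, gene) in the 5 group comparisons and between Astro-named and numbered knockout libraries. Red squares leave out the SFN-fed library labelled cKOAstro replicate 2. All 10 points lie below 0 in both genotype comparisons on one diet, with medians of -0.11 and -0.31, and none of the blue points passed the test.

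Other genes of the early response were read from a list of 47 symbols, of which 45 were in the table and 44 were tested. None of the 44 was called by edgeR in the 5 group comparisons or in the interaction. In the genotype comparison on the control diet 17 of the 44 lay above 0, with a median of -0.090, and the 2 widest were Fosl2, an AP-1 subunit, at -0.45 ± 0.17 and Sik1, a salt-inducible kinase, at -0.44 ± 0.29. On the SFN diet 15 of the 44 lay above 0, with a median of -0.13, and the 2 widest were Sik1 at -0.61 ± 0.23 and Ctgf at -0.56 ± 0.21. Between the control groups of the 2 diets 28 of the 44 lay above 0, with a median of 0.11, and the 2 widest were Klf2 at 0.77 ± 0.23 and Ptgs2, the inducible cyclooxygenase, at 0.66 ± 0.30.

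Of 23 upstream kinases and factors (MAP kinases, ribosomal S6 kinases, ETS partners of serum response factor, CREB and its co-activators), 0 were called by edgeR in these 6 tests. Their medians were -0.0054 in the genotype comparison on the control diet, -0.068 on the SFN diet and 0.025 between the control groups of the 2 diets, nearer to 0 than those of the members. The 2 widest on the SFN diet were the ETS factors Elk3, at -0.68 ± 0.32, and Elk4, at -0.48 ± 0.22.

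Heat shock genes, chaperones that also respond to tissue handling, had fold changes of the other sign in some comparisons and of the same sign in others. All 15 tested lay above 0 between SFN-fed cKOAstro and SFN-fed ConAstro, with a median of 0.35, where all 10 members lay below 0, and 0 of the 15 were called. The 2 widest were Hspa1b at 0.79 ± 0.38 and Hspa1a at 0.68 ± 0.35. Between the control groups of the 2 diets 1 of the 15 lay above 0, with a median of -0.19, where 9 of the 10 members lay above 0. In the interaction all 15 lay above 0, with a median of 0.34, where 3 of the 10 members lay above 0. Between SFN-fed cKOAstro and cKOAstro the signs were shared, since all 15 lay above 0 with a median of 0.14, as did 9 of the 10 members, and Hspa1a was at 1.05 ± 0.24 (edgeR adjusted p = 0.459). In the genotype comparison on the control diet 6 of the 15 lay above 0, with a median of -0.029, and the 2 widest were Hspa1b at -0.85 ± 0.35 and Hspa1a at -0.78 ± 0.25, on the side of the members.

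What the members did show was a spread between libraries, both over all groups together and within a group. Over the 23 libraries the highest level was 1.90 times the lowest for Jun, 2.01 for Egr1, 2.09 for Fosb, 2.14 for Btg2, 2.31 for Fos and 2.32 for Nr4a1. It was 2.45 times for Atf3, 2.52 for Ier2, 2.61 for Junb and 2.85 for Dusp1. Within groups, the SD on the log2 scale was 0.24 for Egr1 and 0.27 for Jun at the low end, and 0.39 for Junb, 0.39 for Atf3 and 0.39 for Dusp1 at the high end. Among the 6216 genes at or above the lowest member's level, the median SD was 0.15, and the members stood between percentile 80.7 (Egr1) and percentile 95.4 (Dusp1). All 10 were thus more variable within groups than the median gene of like or higher level.

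The members tended to be high or low together. Deviations of log2 CPM from the group mean correlated with those of Fos for all 9 other members over the 23 libraries (Pearson's r, two-sided permutation test with 100000 permutations, Benjamini-Hochberg adjusted over the 9 relations). The correlation was strongest for Dusp1 (r = 0.90, Spearman's rho = 0.84), the phosphatase. Junb (r = 0.84, rho = 0.75), Ier2 (r = 0.84, rho = 0.87), Jun (r = 0.84, rho = 0.78) and Btg2 (r = 0.83, rho = 0.81) followed. It was 0.80 for Atf3 (rho = 0.77), 0.73 for Fosb (rho = 0.77) and 0.71 for Nr4a1 (rho = 0.64), and lowest for Egr1 (r = 0.61, rho = 0.65). In the permutation test the raw p of r was 1e-05 for Dusp1, Junb, Ier2, Jun, Btg2 and Atf3, the smallest that these permutations can give, 0.00011 for Fosb, 0.00014 for Nr4a1 and 0.00213 for Egr1. The adjusted permutation p was at most 0.00213 for r and at most 0.00105 for rho.

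These relations did not rest on the extreme libraries alone. Without the 2 libraries farthest from the median of Fos (the SFN-fed library labelled cKOAstro replicate 2, and cKOAstro replicate 4), r lay between 0.53 (Nr4a1) and 0.86 (Jun). Within the 17 numbered libraries it lay between 0.51 (Nr4a1, adjusted permutation p = 0.0383) and 0.94 (Btg2). The 6 Astro-named libraries fall into 3 groups and were not tested alone. Over all 45 pairs of members, r ran from 0.21 to 0.94 with a median of 0.71. The median r with the other members was 0.84 for Ier2 and 0.83 for Fos, Btg2 and Junb, and 0.40 for Egr1, 0.48 for Fosb and 0.51 for Nr4a1. Egr1, Fosb and Nr4a1 thus followed the other members less closely than the rest did.

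**Figure D3:**
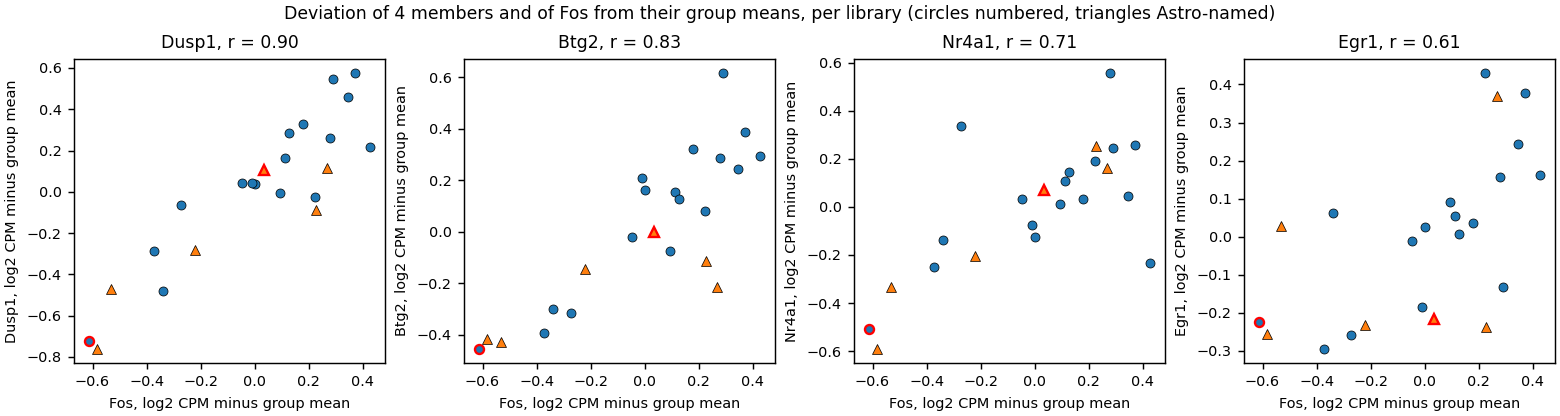
Deviation of Dusp1, Btg2, Nr4a1 and Egr1 (y axes) against that of Fos (x axes), in log2 CPM minus the group mean, 1 point per library. Points lie close to a line for Dusp1 (r = 0.90) and scatter more widely for Egr1 (r = 0.61).

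Ranked from 1 (lowest) to 23 (highest) for each member, libraries had mean ranks from 2.0 to 21.5. The SFN-fed library labelled cKOAstro replicate 2 was lowest, with a mean rank of 2.0, among the 3 lowest libraries for 9 of the 10 members. It was followed by cKOAstro replicate 4 (2.7), which had the lowest level of all for 5 members, and by SFN-fed cKOAstro replicate 6 (3.3). All 10 members were below their medians in each of these 3 libraries. At the other end, SFN-fed ConAstro replicate 5 had a mean rank of 21.5 and was among the 3 highest for 8 members. SFN-fed ConAstro replicate 4 had the lowest level of its group for all 10 members, and ConAstro replicates 1 and 2 were lower than replicates 3 and 4 for every member except Nr4a1 and Egr1.

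**Figure D4:**
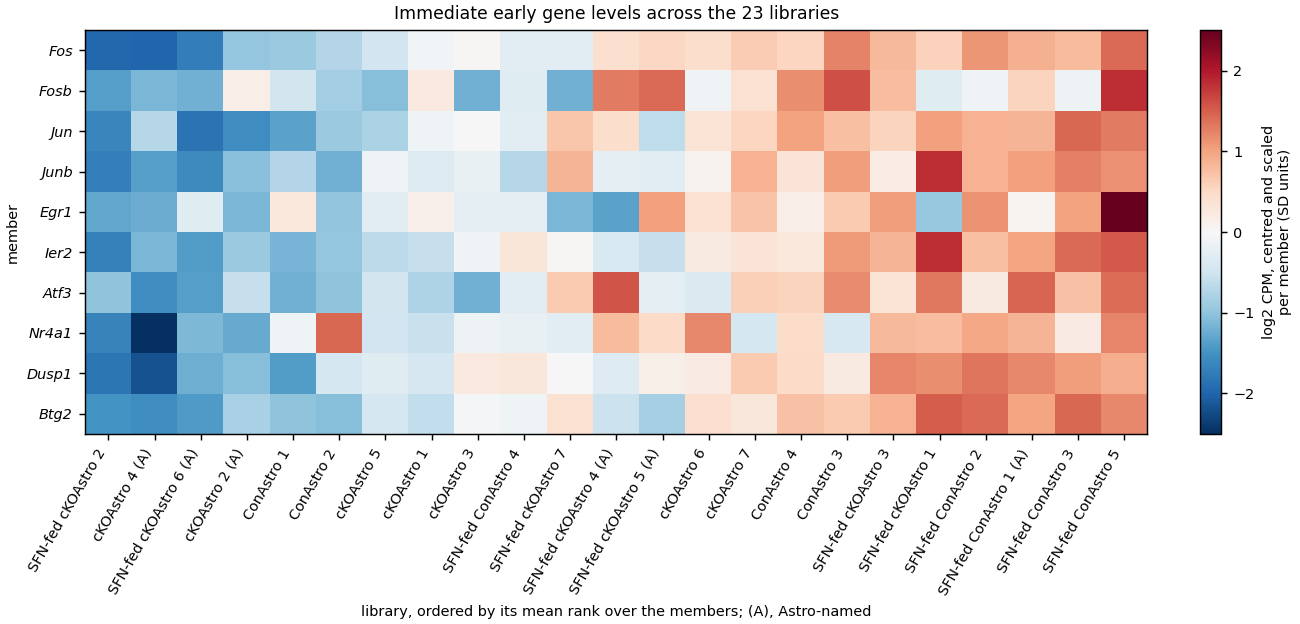
Log2 CPM of the 10 members (rows), centred and scaled per member (colour, SD units), in the 23 libraries (columns) ordered by mean rank. Libraries at the left, among them cKOAstro replicate 4 and the SFN-fed library labelled cKOAstro replicate 2, are low for nearly every member, and SFN-fed ConAstro replicate 5 at the right is high for all.

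Nothing in the labels says what the difference between Astro-named and numbered libraries stands for. Among the 14 cKOAstro libraries of both diets, 5 are Astro-named and 9 numbered, and these were compared with diet in the fit. By edgeR 0 of the 10 members were called (5.96% of all 17662 genes) and DESeq2 called 1, Btg2 (11.8% of all genes). At an unadjusted p under 0.05 there were 4, against 22.2% of all genes, and 9 of the 10 lay below 0 in the Astro-named libraries, against 49.6%. Btg2 averaged 76.4 ± 8.15 CPM in the Astro-named libraries (n = 5) and 102 ± 21.8 in the numbered ones (n = 9), a log2 fold change of -0.45 ± 0.14 (edgeR adjusted p = 0.0718). The others were Junb at -0.48 ± 0.18, Dusp1 at -0.50 ± 0.20 and Ier2 at -0.41 ± 0.16. Fosb alone lay above 0, at 0.18 ± 0.17. The ranges overlapped for all 10 members, and did not for 0.85% of genes.

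One library decided this result. Without the SFN-fed library labelled cKOAstro replicate 2, a numbered one, 5 of the 10 members were called, all lower in the Astro-named libraries, against 12.3% of all genes called in either direction. Btg2 was at -0.53 ± 0.10 (edgeR adjusted p = 0.00286), Dusp1 at -0.63 ± 0.14 (0.00934) and Junb at -0.58 ± 0.13 (0.00934). Ier2 was at -0.50 ± 0.12 (0.014) and Jun at -0.36 ± 0.10 (0.0411), and Fosb remained above 0, at 0.12 ± 0.17. Even then the ranges overlapped for all 10 members, and did not for 6.45% of genes. Dusp1 then ran from 83.3 to 167 CPM with a median of 116 in the 5 Astro-named libraries, and from 141 to 229.7 CPM with a median of 171 in the 8 numbered ones.

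Markers of other cell types moved with the same division. All 9 microglia markers tested were lower in the Astro-named knockout libraries, with a median of -2.23, and all 9 were called by edgeR. Their summed level ran from 315 to 551 CPM in the 5 Astro-named libraries and from 1002 to 3319 CPM in the 8 numbered ones. The SFN-fed library labelled cKOAstro replicate 2 held 354 CPM and thus lay with the Astro-named libraries. The SFN-fed library labelled ConAstro replicate 1, an Astro-named one, held 2844 CPM and lay with the numbered. None of the 9 markers was at 0. All 6 endothelial markers lay below 0, with a median of -0.67 and 0 called, and 2 of 4 fibroblast markers fell, Dcn at -1.29 ± 0.22 and Lum at -1.50 ± 0.28. In the other direction, 8 of 8 neuron markers and 7 of 7 oligodendrocyte markers lay above 0, with 1 called on each list, Tubb3 at 0.87 ± 0.21 and Mobp at 0.57 ± 0.15. Astrocyte markers were divided, with 4 of 10 above 0 and 0 called. The part of these cell types in the members' levels was not tested.

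**Figure D5:**
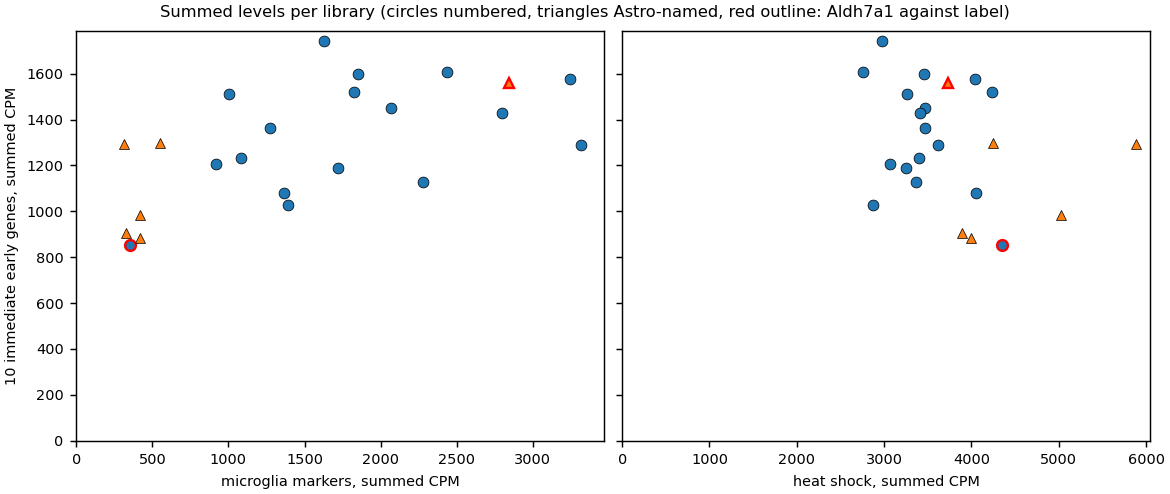
Summed CPM of the 10 members (y axis) against the summed CPM of 9 microglia markers (left x axis) and of 15 heat shock genes (right x axis), 1 point per library. The 5 Astro-named knockout libraries and the SFN-fed library labelled cKOAstro replicate 2 lie at the left of the microglia panel, between 315 and 551 CPM, with summed member levels from 854 to 1299 CPM.

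Of the other early response genes, upstream factors and heat shock genes, 2 of 44, 1 of 23 and 1 of 15 were called, near the 5.96% over all genes. Zfp36, which promotes decay of inflammatory mRNAs, was lower in the Astro-named libraries at -0.68 ± 0.18 (edgeR adjusted p = 0.0396), as was Fosl2 at -0.55 ± 0.15 (edgeR adjusted p = 0.049). Of the 44 tested, 20 lay above 0. Among upstream factors Elk3 was lower, at -1.03 ± 0.19 (edgeR adjusted p = 0.0214). All 15 heat shock genes lay above 0, and the 1 called was the chaperone Hsp90aa1 at 0.42 ± 0.11 (edgeR adjusted p = 0.0449). Their direction was opposite to that of 9 of the 10 members.

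The genes whose pattern was most like that of the members were found by Pearson's r, over the 23 libraries, between a gene's log2 CPM and the mean of the members' scaled levels, among 13264 other genes. This is a description with no test, and levels of cell type markers also differed between the libraries. The 10 closest were Nfkbiz (r = 0.92), Zfp36 (0.91), Klf6 (0.86), Cd14 (0.86), Klf2 (0.86), AI607873 (0.85), H2-Q4 (0.84), Osm (0.84), Mrc1 (0.84) and Clec10a (0.84). Nfkbiz is a nuclear regulator of NF-kappa-B targets and Klf2 and Klf6 are early response transcription factors, and these 3 and Zfp36 belonged to the list of other early response genes. Cd14, Mrc1 and Clec10a are known as genes of macrophages. Mrc1 was at 41.1 to 177 CPM over the libraries and Clec10a at 3.43 to 21.6 CPM. Within the 17 numbered libraries, r was 0.90 for Mrc1, 0.86 for Clec10a and 0.85 for Cd14.

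Of the 42 other early response genes compared, 8 were among the 100 closest genes, and their median r was 0.36, with a range from -0.53 to 0.92. The 9 microglia markers had a median r of 0.64 (0.57 within the numbered libraries) and the 6 endothelial markers 0.56 (0.55). The 15 heat shock genes had a median r of -0.23 (-0.15) and the 10 astrocyte markers -0.11 (-0.046), against -0.038 (-0.042) over all genes. The upstream kinases and factors had a median r of 0.070 (0.0094). Among other cell types the median r was 0.43 (0.60) for the 3 fibroblast markers compared, 0.45 (0.38) for oligodendrocyte precursor, 0.037 (0.31) for mural, -0.079 (0.040) for ependymal, -0.30 (-0.13) for neuron and -0.23 (-0.46) for oligodendrocyte markers. No difference between lists was tested. Whether cell makeup sets their level was not tested.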

How the data were processed

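RNA of ACSA-2-selected cortical astrocytes was sequenced as 1 polyadenylated, unstranded library per mouse (23 mice). The authors aligned reads to mm10 with STAR after FastQC and deposited raw counts of reads per gene symbol, with no normalisation and no pooling of replicates. Counts came from the gene count table that STAR writes. The version of STAR, the gene annotation and the strand column taken are not given in the sources used here. No pair of libraries within a group was alike within counting noise (lowest chi-square per degree of freedom 42.4), so each was 1 replicate.

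From the counts, genes with low counts were removed (filterByExpr, minimum count 10, minimum total 15) and each pair of groups was fitted alone in edgeR 4.0.16 (R 4.3.3, limma 3.58.1) by its quasi-likelihood test, TMM normalisation and Benjamini-Hochberg adjustment at 0.05 over all genes. The interaction was fitted on all 4 groups, and name series with diet on the 14 knockout libraries. The SE was obtained by dividing the fold change by the root of the F statistic. CPM are TMM-normalised over all 23 libraries, log2 CPM carry a prior count of 2, and exon lengths came from GENCODE M21. Fits were tested on simulated data with larger fold changes than those of the members, so this does not show whether changes of the members' size would be called. Alternatives were DESeq2 1.42.0, RLE normalisation, all 4 groups in 1 fit, no filter beyond 1 count, a replicate block, numbered libraries only, name series as a covariate, leaving out the 2 libraries whose Aldh7a1 went against the label, and leaving out each library. Correlations used scipy 1.17.1 (Python 3.11.15). The text names all 10 members, Aldh7a1, the 10 genes most like the members, and from each list the genes called or, with none called, the 2 widest. Mrc1, Clec10a and Cd14 were followed further, and Xist and Ddx3y were given, after their values were seen. Members and lists were chosen with earlier results of these data known. Lists held other early response genes, upstream kinases and factors, heat shock genes and cell type markers. Of the marker lists, those of neurons, oligodendrocyte precursors, mural and ependymal cells gave 0 called genes in the group comparisons and the interaction, as did all others.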

Additional observations from a re-analysis of the deposited data

Results flagged for a closer look

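Each member was examined in each group (40 groups of 4 to 7 libraries) for a library far from the others, by the gap to its nearest neighbour over the group's range. Junb in SFN-fed ConAstro replicate 4, at 106 CPM, was far below the other 4 libraries of its group, which held 163 to 182 CPM, with a gap of 0.80 of the range. Chance flags about 1 in 20 such groups, and 1 of 40 was flagged here. The same library had the lowest level of its group for all 10 members.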

How the results depend on the processing

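Over all results and settings other than leaving out 1 library, 582 of 618 values kept their direction and their side of the threshold, 28 turned sign, 6 passed the threshold only there and 2 counts moved. No member was called in any of the 5 group comparisons or in the interaction under any setting tried. All sign turns were of fold changes that did not pass the test, and their cause was not tested. For cKOAstro vs ConAstro, the sign turned for these members: with the numbered libraries alone Fos (0.00866), Jun (0.018), Junb (0.058), Egr1 (0.031), Dusp1 (0.14) and Btg2 (0.014) and with name series as a covariate Jun (0.00454), Junb (0.046), Egr1 (0.018), Dusp1 (0.13) and Btg2 (0.000693). For SFN-fed cKOAstro vs cKOAstro, the sign turned for these members: with the numbered libraries alone Fos (-0.10), Fosb (-0.079) and Nr4a1 (-0.017) and with both libraries that went against their label left out Egr1 (0.00569). For SFN-fed cKOAstro vs ConAstro, the sign turned for these members: with both libraries that went against their label left out Fos (0.00102), Jun (0.040) and Btg2 (0.068), with the replicate block Jun (0.047) and Btg2 (0.075), with the numbered libraries alone Jun (0.056) and Btg2 (0.17), with name series as a covariate Jun (0.063) and Btg2 (0.17), with no filter beyond 1 count Btg2 (0.00230) and with all 4 groups in 1 fit Btg2 (0.00197). For the interaction, the sign turned for these members: with the numbered libraries alone Fosb (-0.048) and Nr4a1 (-0.070). Between Astro-named and numbered knockout libraries, the count of called members was 1 under DESeq2 (Btg2, -0.43) and 5 without the SFN-fed library labelled cKOAstro replicate 2, against 0 with all libraries. Leaving out 1 library at a time, that count ran from 0 to 5, and in the other tests it stayed at 0. Member fold changes that turned sign for at least 1 library left out ran over these ranges for cKOAstro vs ConAstro: Fos -0.25 to 0.016, Jun -0.18 to 0.035, Junb -0.21 to 0.089, Ier2 -0.22 to 0.067, Dusp1 -0.18 to 0.071 and Btg2 -0.20 to 0.012. For SFN-fed cKOAstro vs SFN-fed ConAstro this was Fosb, -0.22 to 0.015. For SFN-fed ConAstro vs ConAstro they were Fosb -0.17 to 0.13 and Nr4a1 -0.00869 to 0.19. For SFN-fed cKOAstro vs cKOAstro they were Fos -0.011 to 0.14, Junb -0.030 to 0.21, Egr1 -0.10 to 0.018, Ier2 -0.011 to 0.22 and Btg2 -0.010 to 0.17. For SFN-fed cKOAstro vs ConAstro they were Fos -0.19 to 0.073, Fosb -0.27 to 0.00468, Jun -0.13 to 0.088, Junb -0.12 to 0.21, Ier2 -0.14 to 0.21, Atf3 -0.020 to 0.32, Nr4a1 -0.18 to 0.012, Dusp1 -0.032 to 0.22 and Btg2 -0.12 to 0.11. In the interaction they were Fosb -0.026 to 0.29, Atf3 -0.16 to 0.20 and Nr4a1 -0.024 to 0.18. Replicate numbers did not pair the libraries: in no comparison did every same-numbered pair exceed a correlation of 0.1 (lowest -0.211, highest 0.336), and at most 1 library per comparison correlated best with its own number. With the replicate block 0 members were called in every test, and the median member fold change was -0.25 (cKOAstro vs ConAstro), -0.27 (SFN-fed cKOAstro vs SFN-fed ConAstro), 0.24 (SFN-fed ConAstro vs ConAstro), 0.076 (SFN-fed cKOAstro vs cKOAstro), 0.046 (SFN-fed cKOAstro vs ConAstro) and -0.21 (interaction). Over all genes DESeq2 called 8, 367, 23, 11 and 8 in these 5 comparisons and 3 in the interaction, against 4, 0, 0, 0 and 0 and 0 by edgeR, and 2082 against 1052 between name series. Counts of the members were high in every library, so counting error was small beside the spread between mice.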
